A study of Mus musculus with 6 samples.

Results

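The CC chemokine window is a stretch of mouse chromosome 11 that holds the genes Ccl5, Ccl9, Ccl6, Ccl3 and Ccl4. Its members were chosen by position alone, as the CTBP2 binding sites whose centre lies in a fixed stretch around these genes. They number 31 of 62236 sites in the deposited table and run from base 83400148 to base 83577691. CTBP2 was profiled by chromatin immunoprecipitation and sequencing (ChIP-seq) in macrophages derived in culture from bone marrow (BMDMs). The LPS group comprised 3 libraries of cells given 100 ng/ml lipopolysaccharide (LPS), a component of the bacterial outer membrane, for 3 h. The vehicle group comprised 3 libraries of cells given PBS for the same time. All cells came from male wildtype C57BL6/N mice aged 6 to 12 weeks and were differentiated in medium containing L929 supernatant. The labels number the replicates without naming separate animals or cultures, so each p-value measures only how far the libraries spread, and that spread can be technical. Input chromatin was not analysed here, and a binding table gives no check of the cell type by marker expression. Each value averages over all cells of a culture, so a change in the share of cells with binding and a change of binding per cell cannot be told apart.

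CTBP2 is a transcriptional co-repressor that does not bind DNA in sequence-specific fashion itself and is brought to chromatin by transcription factors and their complexes. CC chemokines are small secreted proteins that attract leukocytes through G protein-coupled receptors. Ccl5 (RANTES), Ccl3 (MIP-1-alpha) and Ccl4 (MIP-1-beta) recruit monocytes and T cells and are classical products of LPS-treated macrophages. Ccl6 and Ccl9 are rodent chemokines that act through Ccr1 and are also made by unstimulated myeloid cells.

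Each library column was divided by its median over all sites and set to a common median of 46.9 (the deposited medians lay between 35.5 and 73.0), and values below are signals on that scale unless said otherwise. Taking 1 step of a column as 1 read, libraries held 3243258 to 4553177 reads in sites. Between libraries, log2 values over all sites correlated at 0.890 to 0.932 for libraries of one group and at 0.692 to 0.763 for libraries of different groups (sites are not independent replicates).

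Site coordinates are given as in the deposited table and read here as GRCm39, whereas the gene positions in that table follow GRCm38. The table therefore names Taf15 for 18 members, Ccl5 for 7, Ccl9 for 5 and Ap2b1 for 1. To place the genes, an offset was measured on the stretch of chromosome 11 from 80 to 87 Mb. With gene starts shifted by 109.2 kb to lower positions, 59 of 135 RefSeq gene starts had a site centre within 500 bp, against 24 at the best other shift and 13 with no shift. Over narrower stretches around the window the measured offset was 109.1 and 109.2 kb. Distances to genes below use this offset and are estimates.

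At this placement, 3 members had their centre inside a chemokine gene, 16 inside other annotated genes alone, all of them lncRNA genes, and 12 in none. Neighbouring centres were 1.40 to 17.2 kb apart, with a median of 4.14 kb. Of the protein-coding genes, 1 had its start covered by a member, Ccl6 on the minus strand (GRCm38.p6 chr11:83587882-83593087), with the site's centre 0.14 kb upstream. Another member, chr11:83495197-83496197, covered the start of the lncRNA gene Gm38933. The sites nearest to the starts of the other genes lay 3.49 kb into Ccl5 (minus strand, chr11:83525778-83530518), 1.56 kb downstream of the start of Ccl3 (minus strand, chr11:83647844-83649355) and 2.38 kb downstream of that of Ccl4 (plus strand, chr11:83662584-83664683). For Ccl9 (minus strand, chr11:83572919-83578636) the nearest site lay 4.83 kb upstream.

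The RefSeq promoter table (GRCm38.p6) held 3 of the 5 genes. The 250 bases before their starts are shown because they set a gene start that lies under a site (Ccl6) beside gene starts without one (Ccl3 and Ccl9, whose nearest sites lie farther off). Capitals mark matches on either strand to the kB motif (GGG, any 5 bases, CC), the AP-1 motif (TGANTCA), the ISRE (GAAA, any 2 bases, GAAA) or the PU.1 motif (GAGGAA).
Ccl6 (chr11:83593088-83593337, minus strand): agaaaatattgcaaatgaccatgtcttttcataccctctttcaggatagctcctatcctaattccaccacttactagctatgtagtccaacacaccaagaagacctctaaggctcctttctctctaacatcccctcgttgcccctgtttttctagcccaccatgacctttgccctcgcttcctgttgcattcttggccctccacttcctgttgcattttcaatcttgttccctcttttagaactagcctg
Ccl3 (chr11:83649379-83649628, minus strand): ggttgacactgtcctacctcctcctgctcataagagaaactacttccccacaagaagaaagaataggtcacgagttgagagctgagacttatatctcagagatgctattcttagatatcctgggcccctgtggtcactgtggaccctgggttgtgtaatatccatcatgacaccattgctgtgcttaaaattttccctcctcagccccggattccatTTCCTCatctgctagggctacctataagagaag
Ccl9 (chr11:83578637-83578886, minus strand): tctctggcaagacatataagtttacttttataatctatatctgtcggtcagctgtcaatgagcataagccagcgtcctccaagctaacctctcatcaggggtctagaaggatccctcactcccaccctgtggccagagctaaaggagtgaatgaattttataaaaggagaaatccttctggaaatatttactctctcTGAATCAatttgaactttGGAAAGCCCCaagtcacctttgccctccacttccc
The Ccl9 window held 1 AP-1 match from 53 to 47 bases and 1 kB match from 35 to 26 bases before the start, and these did not overlap. The Ccl3 window held 1 PU.1 match from 33 to 28 bases before the start. The Ccl6 window held none of the 4 motifs in these letters. Of 32851 promoter windows of this length, 45.8% held the kB letters, 6.75% the AP-1 letters, 2.98% the ISRE letters and 23.3% the PU.1 letters.

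LPS was set against vehicle at every site. CTBP2 signal rose at 14 of the 31 members and fell at 1, by limma with a Benjamini-Hochberg adjusted p under 0.05 over all sites. Over all sites, 16.1% were called higher and 13.5% lower. The median log2 fold was 0.44 in the window and -0.02 over all sites. At 15 members the lowest LPS value exceeded the highest vehicle value, and at 1 the highest LPS value was under the lowest vehicle value, against 21.6% and 20.6% of all sites. Of the 31 members, 4 rose by more than 2 on the log2 scale, against 0.514% of all sites. The call depends on the scaling. On the deposited values, 5 members were higher and none lower (limma, with 8 higher and 0 lower at an unadjusted p under 0.05), against 1.89% and 0.0482% of all sites. Of all calls, 54.4% were higher on the median-scaled and 97.5% on the deposited values. The members' folds changed little, with a median log2 fold of 0.50 on the deposited values, but the SEs of the named members were larger. At chr11:83546164-83547164, for example, the log2 fold was 0.60 (SE 0.45) on the deposited and 0.54 (SE 0.14) on the median-scaled values.

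**Figure D1:**
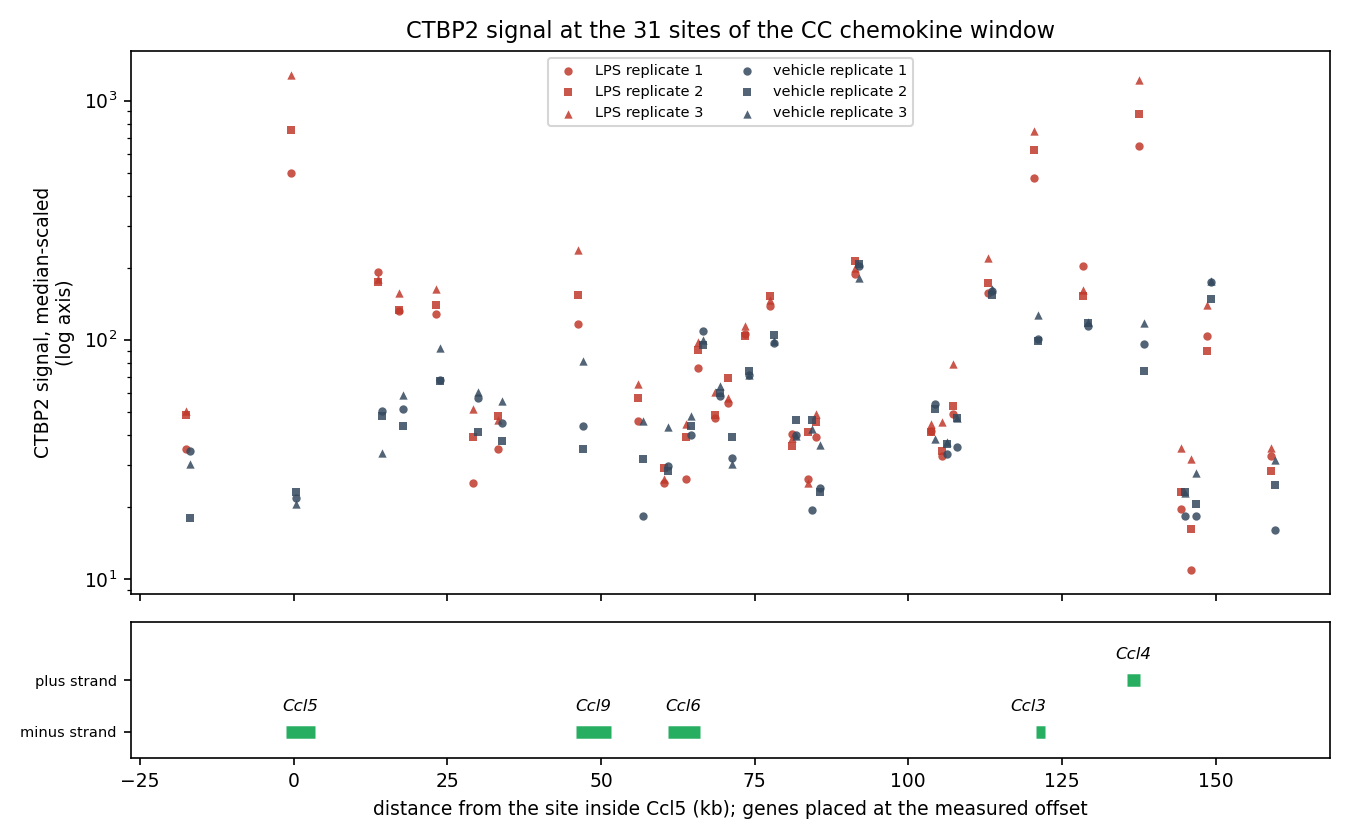
CTBP2 signal (median-scaled, log axis) at the 31 members in each library, with LPS in red and vehicle in dark grey, against distance from the site inside Ccl5 in kb, and the 5 chemokine genes at the measured offset beneath. The LPS libraries stand far above the vehicle libraries at Ccl5, Ccl3 and Ccl4, and the groups lie close together over most of the stretch between Ccl6 and Ccl3.

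The largest change was inside Ccl5, at chr11:83417329-83418329. Its signal was 496, 753 and 1273 in LPS replicates 1, 2 and 3, against 21.8, 23.0 and 20.5 in vehicle replicates 1, 2 and 3. Every LPS library exceeded every vehicle library, and the vehicle values differed little among themselves. The group means were 841 ± 396 in LPS and 21.8 ± 1.29 in vehicle (SD, n = 3 each), and the log2 fold was 5.10 (limma, SE 0.31 and adjusted p = 1.65e-05). In vehicle this was among the weakest sites of the table, at the 7.27th percentile of vehicle means, and in LPS it was at the 99.97th percentile of LPS means. The vehicle values rest on 17 to 27 reads per library and the LPS values on 454 to 1411, if 1 step is 1 read. The centre lay 1.25 kb before the 3′ end of Ccl5, and at the offset the site also lies within the predicted lncRNA gene Gm32650 on the opposite strand.

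Ccl4 carried the second largest change, at chr11:83555262-83556262. The signal was 645, 881 and 1213 in LPS, against 96.2, 74.2 and 118 in vehicle, so the groups were well apart. The log2 fold was 3.21 (limma, SE 0.24 and adjusted p = 1.24e-05). In vehicle the site was already at the 84.2nd percentile. Its centre lay 0.28 kb past the 3′ end of Ccl4.

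Ccl3 carried the third, at chr11:83538096-83539096. The signal was 473, 619 and 745 in LPS, against 101, 98.97 and 126 in vehicle, again without overlap. The log2 fold was 2.47 (SE 0.14), with the smallest adjusted p of the window (limma adjusted p = 2.63e-13), rank 19 among all sites. At the measured offset this centre lay 0.05 kb past the 3′ end of Ccl3. Offsets of 109.1 and 109.2 kb were measured, so the side of the gene end on which it lies cannot be told.

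The sites of Ccl5, Ccl4 and Ccl3 thus had LPS means of 841, 913 and 612, and vehicle means of 21.8, 96.1 and 109. The log2 ratio of the Ccl5 site to the Ccl4 site was -0.38, -0.23 and 0.07 in LPS and -2.14, -1.69 and -2.53 in vehicle. The groups did not overlap, and the ratio was 1.94 higher in LPS on the log2 scale (exact two-sided permutation p = 0.1, the smallest that 3 against 3 libraries can give, so the design cannot reach 0.05). Without single libraries the difference was 1.74 to 2.16.

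**Figure D2:**
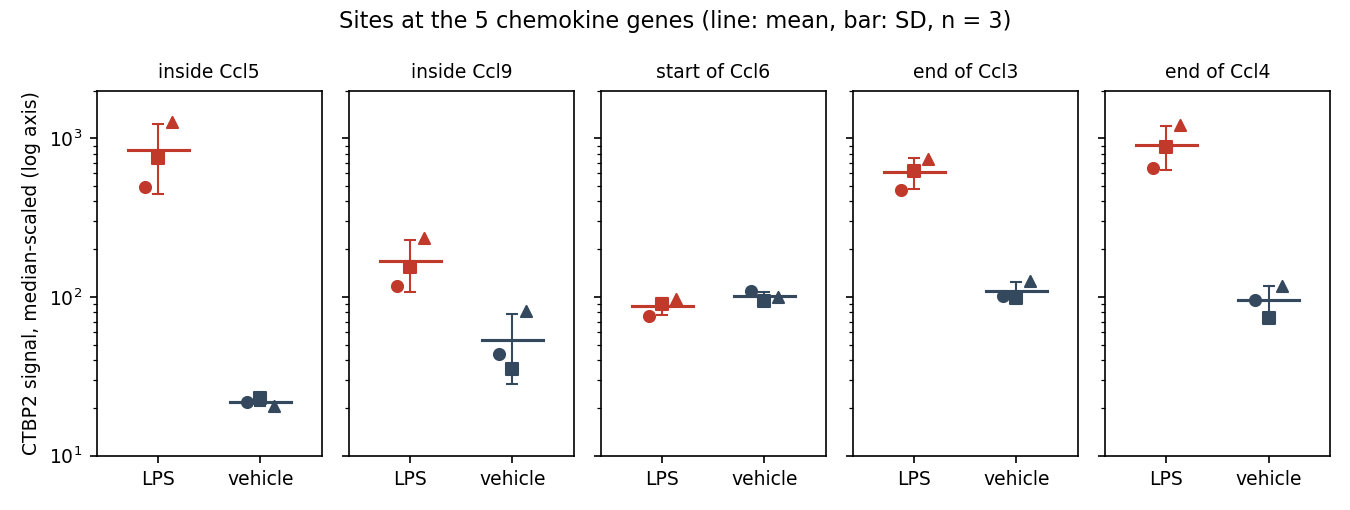
CTBP2 signal (median-scaled, log axis) at 1 site in or next to each chemokine gene, in LPS (red) and vehicle (dark grey) libraries; points are libraries, lines means and bars SDs (n = 3 each). The groups are apart at Ccl5, Ccl3 and Ccl4, closer at Ccl9, and overlap at the start of Ccl6.

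These positions were set beside the gene edges of the stretch from 80 to 87 Mb, after they were seen. There 80 of 90 protein-coding genes had a strand and could be used. Of 332 sites in the stretch, 8 (2.41%) had their centre within 500 bp of a gene end and 43 (12.95%) within 500 bp of a gene start. Of the 31 members, 3 lay that near a gene end (those of Ccl3 and Ccl4 above, and a site at the end of Ccl6) and 1 that near a start of these genes. The site at the end of Ccl6, chr11:83477958-83478958, had 25.1, 29.0 and 26.2 in LPS and 29.8, 28.2 and 43.3 in vehicle, with overlap, and did not pass the test (log2 fold -0.30, SE 0.24, limma adjusted p = 0.361).

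Upstream of Ccl5 lay a run of 3 sites that also rose, with smaller changes at greater distance. At 10.6 kb upstream (chr11:83431421-83432421) the signal was 192, 175 and 180 in LPS, against 50.4, 47.8 and 33.7 in vehicle. Here the LPS libraries agreed closely with each other, unlike at the site inside the gene. The log2 fold was 2.05 (limma, SE 0.16 and adjusted p = 1.34e-11). At 13.9 kb upstream (chr11:83434753-83435753) the signal was 132, 133 and 156 in LPS and 51.5, 43.5 and 59.0 in vehicle, a log2 fold of 1.44 (limma, SE 0.16 and adjusted p = 1.62e-08). At 20.0 kb upstream (chr11:83440847-83441847) it was 128, 139 and 162 in LPS and 67.5, 67.4 and 92.7 in vehicle, a log2 fold of 0.92 (limma, SE 0.16 and adjusted p = 2.89e-05). None of the 3 showed overlap between groups. The next 2 sites, 29.6 and 33.6 kb from the site inside Ccl5, had log2 folds of -0.48 and -0.09 and did not pass. On the other side of Ccl5, a weak site at chr11:83400148-83401148 rose by 0.72 on the log2 scale (34.9, 48.6 and 50.5 in LPS, 34.3, 17.9 and 30.1 in vehicle). Its call was lost without LPS replicate 2 or 3 or vehicle replicate 2, where the log2 fold was 0.65, 0.62 and 0.45. On the deposited values, the calls of the sites 13.9 and 20.0 kb upstream (limma adjusted p = 0.0634 and 0.432) and of the weak site (0.657) were lost.

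**Figure D3:**
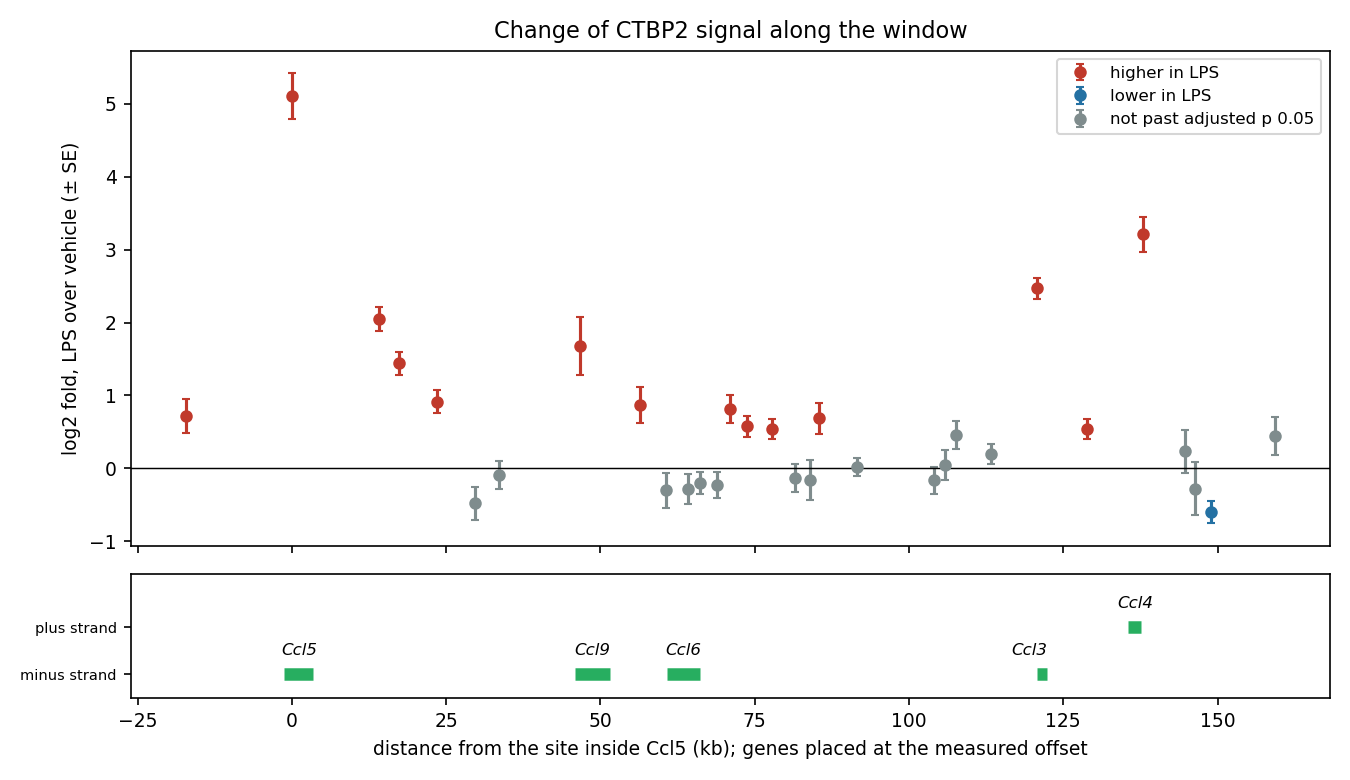
Log2 fold of CTBP2 signal, LPS over vehicle (± SE from limma, n = 3 libraries each), at the 31 members against distance from the site inside Ccl5 in kb, with higher members in red, the lower one in blue and the rest in grey, and the chemokine genes at the measured offset beneath. Folds are largest at Ccl5 (5.10), Ccl4 (3.21) and Ccl3 (2.47), and decline over the 3 sites upstream of Ccl5 from 2.05 to 0.92.

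Ccl9 had a smaller and less even gain. The site inside it (chr11:83464016-83465016), 0.80 kb before its 3′ end, had 117, 154 and 236 in LPS, against 43.5, 35.0 and 81.8 in vehicle. On the log2 scale of the test, vehicle replicate 3 was closer to LPS replicate 1 than to either other vehicle library, without overlap between the groups. The log2 fold was 1.68 (limma, SE 0.40 and adjusted p = 0.0263), and leaving out vehicle replicate 1 gave 1.58 and no call (limma adjusted p = 0.109). The site 4.83 kb upstream of Ccl9 (chr11:83473765-83474765) had 45.8, 57.2 and 65.0 in LPS and 18.3, 31.6 and 45.7 in vehicle, a log2 fold of 0.87 (limma adjusted p = 0.00891). That call was lost without LPS replicate 3 (0.76) or vehicle replicate 1 (0.53), and on the deposited values (limma adjusted p = 0.459).

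Ccl6, whose start is covered by a site, showed no such gain there. At chr11:83483524-83484524 the signal was 76.4, 90.5 and 97.5 in LPS, against 109, 94.7 and 99.9 in vehicle. The groups overlapped, and the log2 fold was -0.20 (limma, SE 0.15 and adjusted p = 0.340). The neighbours inside the gene and 2.89 kb upstream of its start had log2 folds of -0.29 and -0.23 and did not pass either. Farther upstream, 3 sites 4.94, 7.73 and 11.8 kb from the start of Ccl6 rose. They lie within the lncRNA gene E230016K23Rik, which also spans Ccl6 and its sites above that did not pass. The first (chr11:83488330-83489330) had 54.6, 69.1 and 56.9 in LPS and 32.1, 39.3 and 30.1 in vehicle, a log2 fold of 0.82 (limma adjusted p = 0.00117). The second (chr11:83491116-83492116) had 106, 103 and 115 in LPS and 71.0, 74.2 and 71.0 in vehicle, a log2 fold of 0.57 (limma adjusted p = 0.00374). The third (chr11:83495197-83496197) had 139, 153 and 146 in LPS and 97.3, 104 and 98.7 in vehicle, a log2 fold of 0.54 (limma adjusted p = 0.00322). The groups did not overlap at any of the 3, and none of these calls held on the deposited values (limma adjusted p = 0.520, 0.818 and 0.837). A site 19.3 kb upstream rose by 0.68, a call lost on the deposited values (limma adjusted p = 0.691) and without LPS replicate 2 (0.67) or 3 (0.62) or vehicle replicate 1 (0.60) or 2 (0.57).

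Between Ccl6 and Ccl3 lay the strongest vehicle site of the window. At chr11:83508945-83509945 the signal was 188, 214 and 199 in LPS, against 203, 207 and 182 in vehicle, at the 98.8th percentile of vehicle means. The log2 fold was 0.02 (limma, SE 0.13 and adjusted p = 0.921). Another strong site, 8.99 kb downstream of the start of Ccl3, had a log2 fold of 0.19 (SE 0.14) and did not pass. Upstream of Ccl3, and between it and Ccl4, the site at chr11:83546164-83547164 had 203, 152 and 162 in LPS, against 115, 118 and 119 in vehicle. It rose by 0.54 on the log2 scale (limma adjusted p = 0.00346), without overlap, and did not pass on the deposited values (limma adjusted p = 0.825).

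Beyond Ccl4 lay the only member called lower. At chr11:83566218-83567218, 13.3 kb downstream of the start of Ccl4, the signal was 104, 89.6 and 140 in LPS, against 174, 149 and 176 in vehicle. All LPS libraries lay below all vehicle libraries, and the log2 fold was -0.60 (limma, SE 0.15 and adjusted p = 0.00296). Without LPS replicate 2 it was -0.46 and the call was lost (limma adjusted p = 0.0569), as it was on the deposited values (limma adjusted p = 0.892). Without this library 0 members were lower (limma, 1 at an unadjusted p under 0.05), and without LPS replicate 3 or vehicle replicate 2 there were 2. Among all sites, 6031 were lower without LPS replicate 2, 6380 without LPS replicate 3 and 6186 without vehicle replicate 2, against 8409 with all libraries. The other 3 sites beyond Ccl4 were the weakest of the window. At chr11:83562010-83563010 the signal was 19.7, 23.0 and 35.2 in LPS and 18.3, 23.0 and 22.9 in vehicle. At chr11:83563712-83564712 it was 10.9, 16.2 and 31.6 in LPS and 18.3, 20.5 and 27.7 in vehicle. At chr11:83576691-83577691 it was 32.8, 28.2 and 35.2 in LPS and 16.0, 24.7 and 31.3 in vehicle. The groups overlapped at each, and none of the 3 passed the test (limma, SEs of 0.26 to 0.37). They rest on 10 to 39 reads per library, if 1 step is 1 read. The 16 members that did not pass had log2 folds from -0.48 to 0.46, with SEs of 0.13 to 0.37, and 6 of these folds were above 0.

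Summed over the 31 members, the signal was 3741, 4523 and 5828 in LPS and 1932, 1907 and 2139 in vehicle. The ratio of the means was 2.36, and 2.00 without the Ccl4 site, which has the highest LPS mean. Every LPS sum exceeded every vehicle sum, and the sites at 3 of the genes carried most of the gap. These 3 sites were split off as the members with the highest mean over all libraries. They rank there through their LPS values, since their vehicle means were 21.8 to 109, against 197 at the strongest vehicle site. The choice itself therefore favours a large share and ratio for them in LPS. The sites of Ccl5, Ccl3 and Ccl4 made up 43.1%, 49.8% and 55.4% of the sum in LPS libraries and 11.3%, 10.3% and 12.4% in vehicle libraries. Their summed signal was 2365 ± 815 in LPS and 227 ± 34.9 in vehicle (SD, n = 3 each), a ratio of 10.4. The other 28 members summed to 2332 ± 241 in LPS and 1767 ± 93.8 in vehicle (SD, n = 3 each), a ratio of 1.32. These sums are described without a test.

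**Figure D4:**
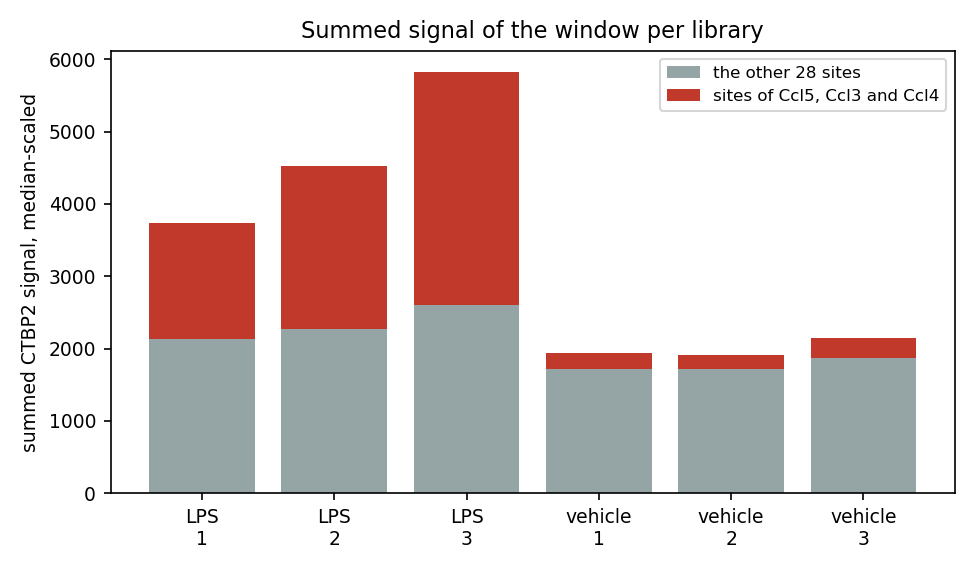
Summed CTBP2 signal (median-scaled) of the window in each library, split into the sites of Ccl5, Ccl3 and Ccl4 (red) and the other 28 members (grey). The red sites were chosen for the highest mean over all libraries, LPS included. The red part is 1613 to 3231 in LPS libraries and 196 to 265 in vehicle libraries, and the grey part 2127 to 2597 in LPS and 1711 to 1875 in vehicle.

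The LPS libraries differed among themselves at many members. LPS replicate 3 held the highest LPS value at 22 of 31 members, against 34.8% of all sites and 41.7% of sites on chromosome 11. The neighbouring stretches shared this, with 10 of 15 sites in the 180 kb above the window and 5 of 9 in the 180 kb below. In windows of the same width it was 8 of 17 sites around Cxcl5 to Cxcl2 and 8 of 25 around Ccl2 to Ccl1. At 9 of the 14 higher members replicate 3 was highest and replicate 1 lowest of the LPS libraries, against 20.8% of all higher sites. The ratio of replicate 3 to replicate 1 was 2.57 at the Ccl5 site, 1.88 at Ccl4, 1.58 at Ccl3 and 2.02 inside Ccl9. It was also high at members that did not pass the test, with 2.89 at the weak site chr11:83563712-83564712 and 2.05 at the site 29.6 kb from the one inside Ccl5. It was 0.93 at the site 10.6 kb upstream of Ccl5 and 0.80 at the site between Ccl3 and Ccl4. Without LPS replicate 3 the log2 folds were 4.75 at Ccl5, 2.98 at Ccl4 and 2.31 at Ccl3, and these calls were kept. What sets the difference between these libraries was not tested.

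In the authors' deposited table, 5 members were higher at an FDR under 0.05 and 0 lower, against 4.01% and 0.37% of all sites there. The authors' deposited table gave log2 folds of 5.01 at Ccl5 (FDR 4.9e-12), 2.04 at Ccl4 (FDR 0.00016) and 2.01 at Ccl3 (FDR 1.75e-06). In the authors' deposited table the sites 10.6 and 13.9 kb upstream of Ccl5 had log2 folds of 1.78 (FDR 4.7e-06) and 1.00 (FDR 0.0307). The site inside Ccl9 was not among these 5, with an authors' log2 fold of 0.32 (FDR 0.364). The authors' folds and those of limma come from different fits and are not like measures. On the deposited values limma gave log2 folds of 1.735 inside Ccl9, 3.27 at Ccl4, 2.53 at Ccl3 and 5.16 at Ccl5. What sets the difference was not tested. The 5 members that limma called on the deposited values were not the same set. They held the site inside Ccl9 and not the site 13.9 kb upstream of Ccl5.

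Windows of the same width, 180 kb, were set beside this one, with no test of any difference. Around the monocyte chemokine genes from Ccl2 to Ccl1 on chromosome 11, 11 of 25 sites were higher and 0 lower (limma, 1 lower at an unadjusted p under 0.05), with a largest log2 fold of 1.91. Around the neutrophil chemokine genes from Cxcl5 to Cxcl2 on chromosome 5, 6 of 17 were higher and 1 lower, with a largest log2 fold of 4.95. The Cxcl genes encode attractants of neutrophils, and their largest fold is close in size to that inside Ccl5. In the neighbouring stretch below the window 2 of 9 sites were higher and 0 lower (limma, 0 at an unadjusted p under 0.05), with a largest log2 fold of 1.047. In the stretch above it 9 of 15 were higher and 0 lower (limma, 0 at an unadjusted p under 0.05), with a largest log2 fold of 1.72. In the CC chemokine window it was 14 of 31. Log2 folds above 2 numbered 4 in the CC chemokine window, 3 in the Cxcl5 to Cxcl2 window and 0 in the others. On the deposited values the higher sites numbered 5 in the CC chemokine window, 1 from Ccl2 to Ccl1, 3 from Cxcl5 to Cxcl2, 0 below and 1 above.

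**Figure D5:**
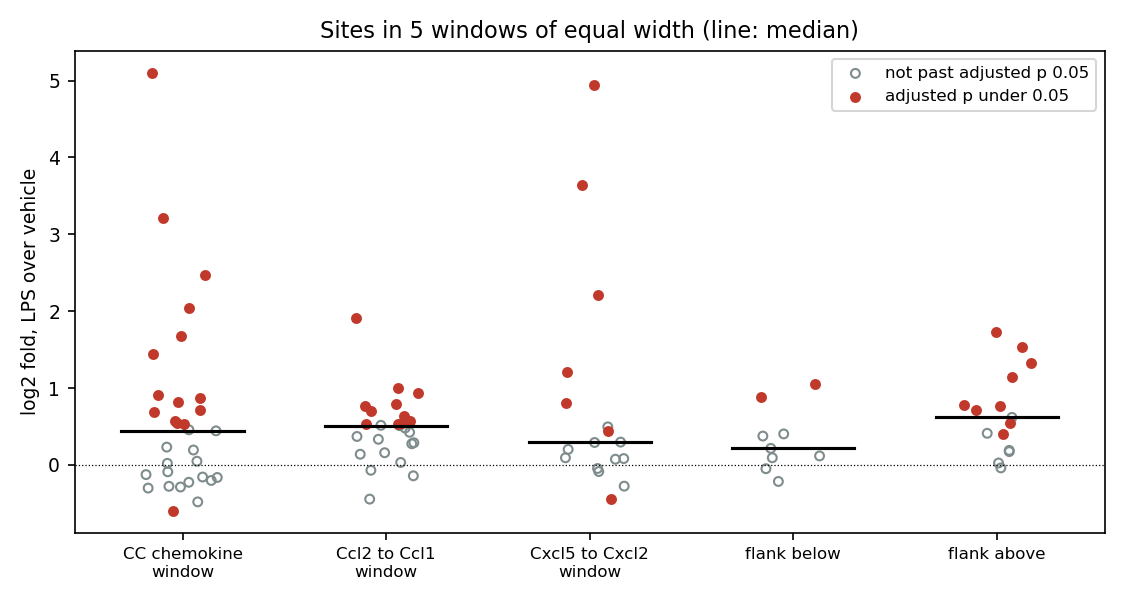
Log2 fold of CTBP2 signal, LPS over vehicle, for each site in 5 windows of 180 kb; filled red points passed a limma adjusted p of 0.05, open points did not, and lines are medians. The medians lie between 0.22 and 0.62, and the points above 2 are in the CC chemokine window and the Cxcl5 to Cxcl2 window.

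Other genes of the pathway were placed at offsets measured in the same way within 3 Mb of each. Of 12 other CC chemokine genes 9 could be placed, and 6 of these had a higher site within 20 kb of their start. Of these 6 genes, 5 lie in or beside the Ccl2 to Ccl1 window, where neighbouring genes share sites, so these counts largely repeat that window's. The share of all genes with such a site was not computed. Of the 30 different sites near these genes 14 were higher (46.7%) and 0 lower (limma, 0 at an unadjusted p under 0.05), and 2 were higher on the deposited values. The site 1.1 kb from the start of Ccl8, a monocyte attractant, had 64.4, 80.2 and 72.2 in LPS, against 19.5, 17.9 and 18.1 in vehicle, a log2 fold of 1.91 (limma adjusted p = 6.04e-09). A site 2.6 kb from the start of Ccl2, the main monocyte attractant, had 117, 112 and 100 in LPS, against 54.9, 62.3 and 53.0 in vehicle, a log2 fold of 0.94 (limma adjusted p = 2.29e-05). At Ccr1, a receptor that binds Ccl3 and Ccl5 among others, 1 of 8 sites was higher and 3 lower on the median-scaled values, and these calls did not hold on the deposited values.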

How the data were processed

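CTBP2 ChIP-seq was deposited as 1 table of sites with 6 library columns. Per the labels' protocols, cells were fixed with 2 mM DSG and 1% formaldehyde, and chromatin was sheared to 500 to 1000 bp. Per the submitters' processing notes, the tools included BWA 0.7.17, Picard 3.2.0, SAMtools 1.9, MACS3 3.0.0a5, R 4.4.1 and DiffBind 3.16, and the builds mm39, GRCm39 and mm10 are listed without a role. The sources used here do not say if replicates were pooled for peak calling.

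The deposited signal per site and library is a normalised value. Up to 300 reads, each value lay within 0.1 read of a whole multiple of its column's step, and what set that factor is not given. The smallest values are several steps, so 1 step is not shown to be 1 read, and read numbers given are estimates. The log2 fold, p-value and FDR columns are the authors' own, and the deposited values were not tested as counts.

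Here each library was scaled by its median, and log2(value + 1) was fitted with trended, robust limma (version 3.58.1, R 4.3.3) over all sites, with 6 libraries, no covariates and Benjamini-Hochberg adjustment. Folds on this scale understate changes at low sites. The script was tested on simulated data. Other statistics used scipy 1.17.1. The offset search moved gene starts by up to 300 kb in steps of 50 bp (list genes, up to 1 Mb in steps of 100 bp, with at least 1.5 times the hits of the next best shift).

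Named sites were those nearest to a chemokine gene start within 2 kb, the 10 higher and up to 10 lower members with the smallest adjusted p, and the 3 strongest and 3 weakest members, 15 in all. The other members given with values, among them those in and near Ccl9, the outer site near Ccl5 and the strong sites between Ccl6 and Ccl3, were chosen after their values were seen. The members, lists and windows were chosen with earlier results of these data known. Alternatives were the deposited scale, quantile normalisation, a pseudocount of 10, leaving out the weakest 25% of sites, a replicate block and leaving out each library. The counting intervals of single sites were not computed, because the table holds no counts. The list of chemokine receptor genes is not reported here as a whole.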

Additional observations from a re-analysis of the deposited data

How the results depend on the processing

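The gains inside Ccl5, at Ccl3, at Ccl4 and 10.6 kb upstream of Ccl5 passed limma's test in each of the 11 alternatives run. Over these, the log2 fold was 4.64 to 5.43 at Ccl5, 2.31 to 2.64 at Ccl3, 2.98 to 3.44 at Ccl4 and 1.85 to 2.16 at the upstream site. No called member changed sign. On the deposited values the numbers of higher and lower sites were 1178 and 30 over all sites and 5 and 0 among the members (limma, 0 lower members at an unadjusted p under 0.05), and the cause was not tested. Without single libraries, 11 to 15 members were higher and 0 to 2 lower. Of all 62236 sites, these fits called 7691 to 10083 higher and 6031 to 7914 lower. With the replicate block 15 members were higher and 2 lower, a gain of 1 each way (log2 folds 0.46 and -0.48), and no member's call was lost. Calls also rose over all sites, to 11692 higher and 10398 lower with the block, against 10034 and 8409 without it. The SE with the block was 0.13 inside Ccl5, against 0.31 without it, and 0.31 against 0.30 at the weak site chr11:83562010-83563010. Deviations of same-numbered libraries from their group means correlated at 0.111, 0.0385 and 0.214. Those of differently numbered libraries correlated at -0.205 to 0.148, and LPS replicate 1 correlated best with vehicle replicate 2. Whether the numbers pair the samples cannot be told from these values. Quantile normalisation, a pseudocount of 10 and leaving out weak sites gave 14 higher and 1 lower members, in the last case of 27 tested. Among all sites they gave 9227, 10165 and 7365 higher and 9615, 8543 and 7281 lower, in the last case of 46677 tested. Widening the window by 50 kb on each side gave 45 sites, 20 higher and 1 lower, against 16.1% and 13.5% of all sites. Count models on reads recovered from the steps were not run, because the values did not meet the criterion set for recovered reads: the smallest are several steps. Weak sites rest on as few as 10 reads per library, if 1 step is 1 read, and have wider errors.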
